A study of Mus musculus with 6 samples.

Results

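Genes of blood clotting and clot removal were followed in mouse hepatocytes exposed to TNF. The list held 36 gene symbols, set by known function: clotting factors, fibrinogen chains, anticoagulants, genes of fibrinolysis, and the enzymes and carriers that clotting factors need to mature. Of these, 34 matched a symbol among the 19764 genes of the deposited table, and 33 had enough reads to be tested. Vwf had too few reads for a test, and Serpind1 and Cpb2 were not analysed here. The list was chosen with earlier results of these data known. The hepatocytes came from Bl6/N mice and were cultured without dexamethasone but with corticosterone. All 6 cultures then spent 16 h in starvation medium, which holds 5 mM glucose and little serum. During the 8 h treatment all of them were given corticosterone at 1 µM, which acts on the glucocorticoid receptor, and WY-14643 at 10 µM, which acts on PPARα. Together with these ligands the 3 Control cultures received vehicle and the 3 TNF cultures 1 ng/ml of TNF, an inflammatory cytokine. No group lacked the ligands, so the values describe TNF in their presence. The labels do not say whether replicates were separate animals or cultures. The p-values therefore rest on the spread between these libraries, or between the changes of same-numbered pairs of them, which may be technical. They also draw on the spread of other genes.

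Clotting is a cascade of proteases. Tissue factor (F3) on a cell surface binds factor VII and starts it, factors IX, X, V and VIII amplify it, thrombin (F2) cleaves fibrinogen, and a fibrin mesh forms that factor XIII cross-links. Antithrombin, the protein C system and tissue factor pathway inhibitor restrain it, and plasmin, made from plasminogen, dissolves the mesh. Most of these proteins are secreted by hepatocytes, whereas von Willebrand factor, factor VIII, thrombomodulin and tissue plasminogen activator are made mainly by endothelial cells. Several factors carry γ-carboxylated glutamates, which the vitamin K-dependent carboxylase Ggcx adds. Fibrinogen is classed as an acute phase protein, whose genes respond to IL-6 through STAT3 and C/EBP factors, and tissue factor and the urokinase receptor are known as genes that inflammatory signals can induce.

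Promoter stretches were taken from the RefSeq promoter table (build GRCm38.p6, the assembly behind mm10) for 25 of the 34 genes, as the 250 bases before the start. The 7 printed here belong to the 2 members that rose (F3 and Plaur), the 3 fibrinogen chains and the 2 members with the largest falls (F13b and Proz). Capitals mark matches, on either strand, to 7 patterns: TTCNNNGAA (STAT), CTGGGAA (the core of the IL-6 response element of fibrinogen promoters), TTGCNNAA (C/EBP), GTTAAT (HNF1), CAAAGTCC (HNF4), AGAACA (glucocorticoid receptor) and GGANTTTCC (NF-κB). A CTGGGAA match can overlap a STAT match, as it does in F9. Each sequence runs 5′ to 3′ on the gene's own strand. F3 lies at chr3:121723287-121723536 (plus strand), Plaur at chr7:24462233-24462482 (plus), Fga at chr3:83025903-83026152 (plus), Fgb at chr3:83049864-83050113 (minus), Fgg at chr3:83007474-83007723 (plus), F13b at chr1:139501457-139501706 (plus) and Proz at chr8:13060658-13060907 (plus).
F3: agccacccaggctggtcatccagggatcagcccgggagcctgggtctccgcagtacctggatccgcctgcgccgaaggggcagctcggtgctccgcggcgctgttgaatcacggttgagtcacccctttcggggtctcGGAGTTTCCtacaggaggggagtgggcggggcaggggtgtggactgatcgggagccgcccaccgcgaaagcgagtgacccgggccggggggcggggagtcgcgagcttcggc
Plaur: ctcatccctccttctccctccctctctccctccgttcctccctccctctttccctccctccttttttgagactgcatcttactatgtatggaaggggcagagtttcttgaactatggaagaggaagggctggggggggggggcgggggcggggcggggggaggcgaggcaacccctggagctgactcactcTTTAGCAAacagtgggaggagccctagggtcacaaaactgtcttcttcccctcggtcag
Fga: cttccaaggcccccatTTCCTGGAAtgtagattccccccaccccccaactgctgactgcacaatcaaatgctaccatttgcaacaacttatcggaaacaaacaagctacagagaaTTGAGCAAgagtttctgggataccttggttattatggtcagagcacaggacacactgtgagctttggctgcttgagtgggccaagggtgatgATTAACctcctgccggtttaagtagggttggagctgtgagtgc
Fgb: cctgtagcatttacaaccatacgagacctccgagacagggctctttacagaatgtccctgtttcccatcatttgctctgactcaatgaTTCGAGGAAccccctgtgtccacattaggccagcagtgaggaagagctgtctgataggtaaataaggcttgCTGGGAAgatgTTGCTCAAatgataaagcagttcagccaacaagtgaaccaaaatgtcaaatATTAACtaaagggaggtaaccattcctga
Fgg: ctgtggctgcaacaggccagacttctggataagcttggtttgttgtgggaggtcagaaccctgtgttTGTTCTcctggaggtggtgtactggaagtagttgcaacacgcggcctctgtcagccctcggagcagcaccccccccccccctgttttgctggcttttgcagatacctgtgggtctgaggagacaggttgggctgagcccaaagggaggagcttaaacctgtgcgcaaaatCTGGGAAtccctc
F13b: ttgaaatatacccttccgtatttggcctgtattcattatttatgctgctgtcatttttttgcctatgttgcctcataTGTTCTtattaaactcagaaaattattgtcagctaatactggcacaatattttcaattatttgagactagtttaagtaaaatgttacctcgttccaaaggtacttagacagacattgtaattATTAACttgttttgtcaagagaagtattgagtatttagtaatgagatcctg
Proz: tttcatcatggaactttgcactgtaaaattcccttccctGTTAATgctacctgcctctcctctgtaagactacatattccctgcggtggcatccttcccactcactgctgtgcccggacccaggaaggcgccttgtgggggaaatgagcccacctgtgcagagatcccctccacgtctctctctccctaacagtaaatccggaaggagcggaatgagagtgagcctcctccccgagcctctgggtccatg

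The F3 stretch held the NF-κB pattern as GGAGTTTCC, 104 to 112 bases before the start, and was the only one of the 25 with it, where 1.05% of 27025 promoters in the table held it. The Fgb stretch held STAT, C/EBP, HNF1 and CTGGGAA matches, with the C/EBP match 73 to 80 bases and the CTGGGAA match 85 to 91 bases before the start. Fga held STAT, C/EBP and HNF1 matches, and Fgg held CTGGGAA and the glucocorticoid receptor pattern. Plaur held a C/EBP match, F13b held HNF1 and glucocorticoid receptor matches, and Proz an HNF1 match. Among the 25 stretches the C/EBP pattern was found in 9 (36%, against 9.55% of all promoters and 7.57% of those of tested genes). The glucocorticoid receptor pattern was found in 8 (32%, against 16.2% of all promoters and 10.9% of those of tested genes). The STAT pattern was found in 4 (16%, against 7.18% of all promoters and 6.01% of those of tested genes), HNF1 in 4 (16%, against 6.52% of all promoters and 4.23% of those of tested genes) and CTGGGAA in 3 (12%, against 9.08% of all promoters and 9.40% of those of tested genes). The HNF4 pattern was found in none of the 25 and in 1.22% of all promoters. The members' stretches had a median GC content of 51.6%, against 60% for tested genes, and the part of base composition in these shares was not tested. A match is a run of letters and does not show that a factor binds. The RefSeq starts of Fgg, Fgb, Pros1, Serpinc1 and Plaur lay 172, 73, 27, 23 and 17 bases from the start in the deposited table, and the other 20 matched it.

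Libraries held 17612060 to 25114289 reads over genes. Levels are given as CPM (a gene's reads divided by the library's scaled total), and changes are differences in log2(CPM + 1), TNF minus Control, which understate the change of genes with few reads. Same-numbered Control and TNF libraries deviated together across genes, with correlations of 0.78, 0.79 and 0.79, so each change was fitted with limma in 2 ways. The unpaired fit used group alone, and the blocked fit added the replicate number. "Rose" and "fell" are used of genes with a Benjamini-Hochberg adjusted p under 0.05 over all 12293 tested genes in the blocked fit. Each SE given is moderated, that is, drawn towards the spread of other genes. For 13 of the 21 members that passed the blocked fit the gene's own SE was larger, as for Fga (0.10 against 0.05). In the unpaired fit no member passed (lowest adjusted p 0.114, for Plaur), where 0.431% of all tested genes did. That fit held 7 members lower and 1 higher before adjustment (p under 0.05), where 4.31% and 4.44% of all tested genes were, and limma-voom without the block passed 0 members.

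More members were lower than higher with TNF, and the genes of tissue factor and the urokinase receptor were higher. In the blocked fit 19 of 33 members fell, 2 rose (F3 and Plaur) and 12 did not pass. Over all tested genes that fit passed 20.6%, with 11.2% lower and 9.4% higher, against 57.6% of the members lower and 6.06% higher. The members' falls went with level: 73.1% of the 26 with a mean of at least 10 CPM fell, and 0 of the 7 tested below it. The share among all genes of like level was not worked out. The median member changed by -0.16, with medians of -0.14, -0.24 and -0.13 in pairs 1, 2 and 3, and the median of all tested genes was -0.01. The falls ranged from 0.12 to 0.39, and on this log2(CPM + 1) scale none of the 33 tested members moved by 1.5-fold or more, as 280 of the 12293 tested genes did. Each of the 21 called members changed in the same direction in all 3 pairs. Their selection favours this, since the blocked fit tests the mean of these pair changes. Of the 33, 22 were lower in every pair and 3 higher in every pair, where 27.7% and 23.4% of all tested genes were. The authors' deposited table listed 20 of the 34 members at an adjusted p under 0.05, 18 lower and 2 higher, where it listed 15.2% of all genes, and each of the 20 also passed the blocked fit. Plg was the member that passed the blocked fit and not theirs, at an adjusted p of 0.0517 in the authors' deposited table.

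Summed over the 34 genes, Control libraries 1, 2 and 3 held 5741, 6080.3 and 7479 CPM and TNF libraries 5332, 5281 and 6807 CPM. Each TNF library lay below the Control library of its number, by log2 changes of -0.11, -0.20 and -0.14, although the groups overlapped. In bulk RNA, fewer cells of a type and less RNA per cell cannot be told apart. The label was checked on hepatocyte markers: Alb, the albumin gene, was at 34932 CPM in Control and 33298 in TNF (log2 -0.06, blocked adjusted p 0.678). The 11 hepatocyte markers summed to 46712 to 67651 CPM in Control and 44973 to 60954 in TNF, and none was at 0. In the blocked fit 6 of the 11 fell (54.5%, against 11.2% of all tested genes) while none rose. Unpaired, 0 passed and 4 were lower before adjustment (36.4%, against 4.31% of all tested genes). Cps1, an enzyme of the urea cycle, fell by 1.43, Ahsg, a secreted plasma protein, by 0.60 and Hnf4a, a transcription factor of hepatocytes, by 0.43, each a larger fall than that of any of the 33 tested members. The other 3 were Apoa1 (a fall of 0.26), Apoc3 (0.24) and Ttr (0.11). The part of such a shared shift in the members' falls was not tested.

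**Figure D1:**
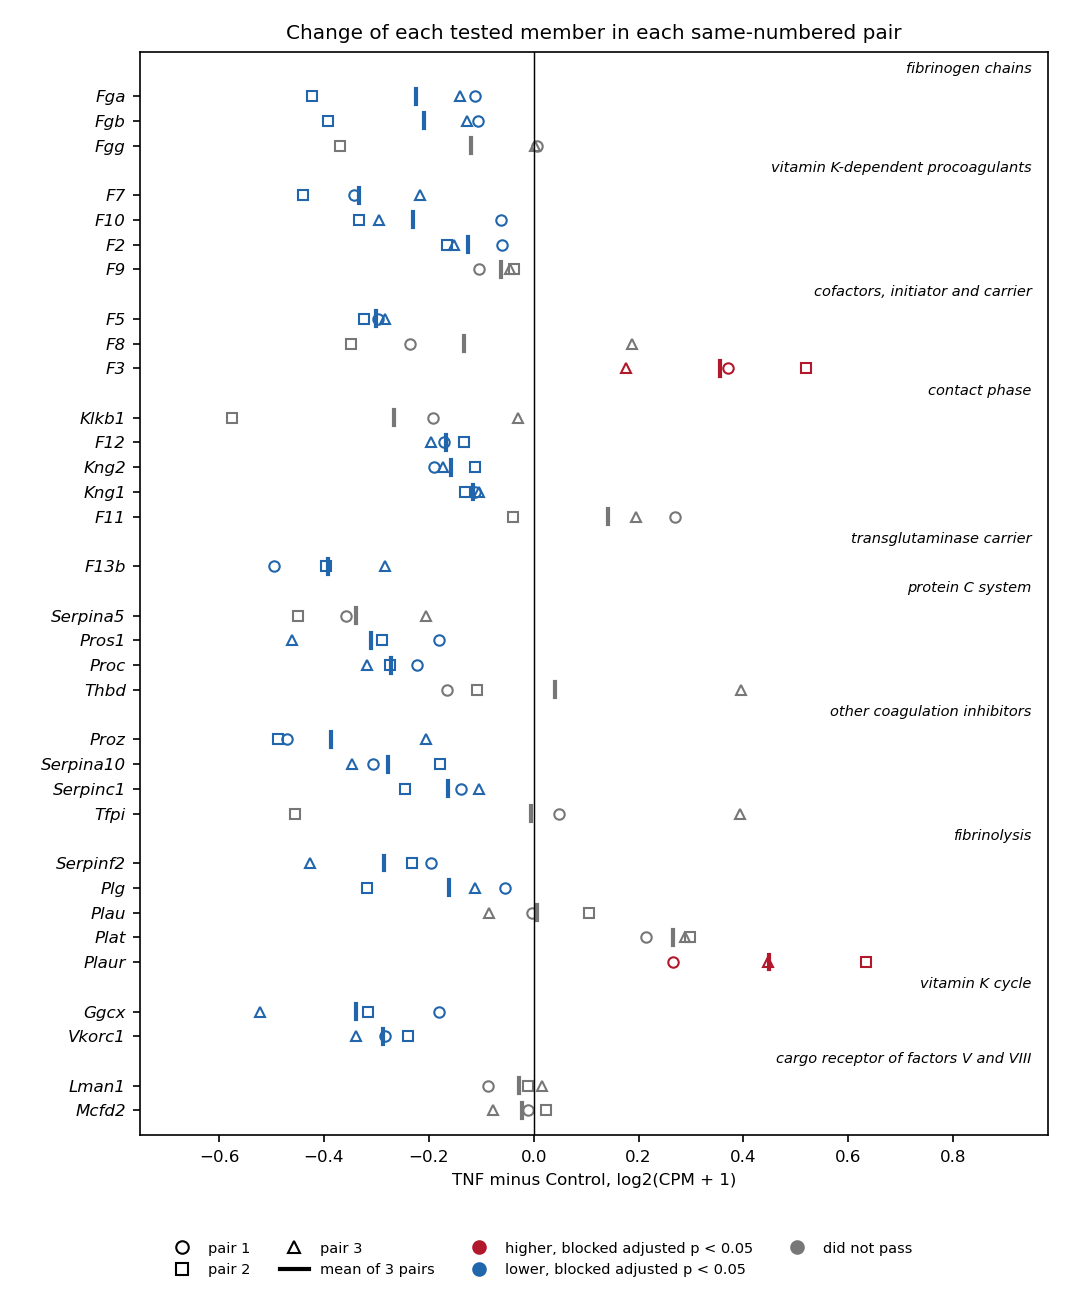
Change of each of the 33 tested members by role, as TNF minus Control in log2(CPM + 1). Open symbols are the 3 same-numbered pairs and thick bars their mean, coloured by the blocked call; F3 and Plaur lie right of 0 in every pair, and the 19 members that fell lie left of it in every pair.

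Fibrinogen is built from 3 chains, and their genes Fgg, Fga and Fgb lie side by side on chromosome 3 (mm10, bases 83007896 to 83049790) with no other gene of the table between them. Fga, the Aα chain, was at 584, 365 and 859.7 CPM in Control and 541, 272 and 779.8 in TNF (libraries 1, 2 and 3 in this order throughout). Fgb, the Bβ chain, was at 669, 471 and 947 CPM in Control and 622, 358 and 867 in TNF. For each of these genes the number 2 library was lowest and the number 3 library highest within each group, and the groups overlapped. Fga fell by 0.22 (blocked SE 0.05, adjusted p 0.00410; unpaired adjusted p 0.995) and Fgb by 0.21 (blocked SE 0.05, adjusted p 0.00511; unpaired adjusted p 0.995). Pair 2 moved most: the pairs gave -0.11, -0.42 and -0.14 for Fga and -0.11, -0.39 and -0.13 for Fgb. Without replicate 2 the changes were -0.13 (adjusted p 0.0185) and -0.12 (adjusted p 0.0277). Without a filter on low counts neither passed (adjusted p 0.0647 and 0.0688).

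Fgg, the γ chain, was at 424, 269 and 613 CPM in Control and 426, 208 and 615 in TNF. Libraries 1 and 3 were level between groups and library 2 was lower in TNF, with pair changes of 0.01, -0.37 and 0.00. The gene did not pass (log2 -0.12, blocked adjusted p 0.164). It passed without replicate 1 (-0.18, adjusted p 0.000746) or without replicate 3 (-0.18, adjusted p 0.0260), and without replicate 2 its change was 0.01. Summed, the 3 chains were at 1734 ± 659 CPM in Control and 1563 ± 712 in TNF (mean ± SD, n = 3, here and below), a difference smaller than the spread between libraries of either group.

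Among the vitamin K-dependent procoagulant proteases, F7, the partner of tissue factor, was at 39.7, 43.6 and 40.9 CPM in Control and 31.1, 31.9 and 35.1 in TNF. All TNF libraries lay below all Control libraries. F7 fell by 0.33 (blocked SE 0.06, adjusted p 0.000814; unpaired adjusted p 0.211). F10, the protease that converts prothrombin to thrombin, was at 131, 191 and 189 CPM in Control and 125, 152 and 154 in TNF. The groups overlapped, since Control 1 was below TNF 2 and TNF 3, and F10 fell by 0.23 (blocked SE 0.05, adjusted p 0.00241; unpaired adjusted p 0.880), with pair changes of -0.06, -0.33 and -0.29.

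F2, prothrombin, was at 763, 1272 and 1183 CPM in Control and 732, 1134 and 1064 in TNF. The number 1 library was lowest in each group, and each TNF library was below its Control partner. F2 fell by 0.13 (blocked adjusted p 0.0172), a call lost without a filter on low counts (0.0778), without replicate 2 (0.0595) and without replicate 3 (0.0908). F9, the protease that works with factor VIII, was at 66.3 ± 4.39 CPM in Control and 63.5 ± 5.74 in TNF and did not pass (log2 -0.06, 95% interval -0.15 to 0.03, blocked adjusted p 0.345).

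F7, F10 and Proz are neighbours on chromosome 8 on the same strand, with gaps of 1502 and 4231 bases. Proz encodes protein Z, a vitamin K-dependent cofactor that helps a partner inhibitor act on factor Xa. It was at 58.3, 46.3 and 52.2 CPM in Control and 41.8, 32.7 and 45.1 in TNF, with no overlap of the groups. Proz fell by 0.39 (blocked SE 0.06, adjusted p 0.000282; unpaired adjusted p 0.448), with pair changes of -0.47, -0.49 and -0.20. F11, a contact-phase protease that activates factor IX, and Klkb1, prekallikrein, are also neighbours on chromosome 8. F11 was at 34.7, 40.2 and 54.9 CPM in Control and 42.1, 39.1 and 63.1 in TNF, higher in pairs 1 and 3, and did not pass (log2 0.14, blocked adjusted p 0.118); it passed without replicate 2 (0.23, adjusted p 0.0139). Klkb1 was at 9.41 ± 2.86 CPM in Control and 8.01 ± 3.97 in TNF, lower in every pair, and did not pass (log2 -0.27, blocked adjusted p 0.124); without replicate 2 its change was -0.11.

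The initiator of clotting went the other way. F3, the tissue factor gene, was at 22.4, 42.7 and 33.8 CPM in Control and 29.3, 61.6 and 38.3 in TNF. TNF 1 was below Control 2 and Control 3, so the groups overlapped, but each TNF library was above the Control library of its number. F3 rose by 0.36 (blocked SE 0.06, adjusted p 0.00121; unpaired adjusted p 0.930), and by 0.37, 0.52 and 0.18 in pairs 1, 2 and 3. It passed in all 11 alternative settings with the block, with changes between 0.27 and 0.45. Its promoter stretch is the one above with the NF-κB pattern. The stretch of Plaur, which also rose, held no match to it, and the part of the pattern in these changes was not tested.

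F5, the cofactor that speeds thrombin formation, was at 81.3, 120.2 and 125 CPM in Control and 65.9, 95.9 and 102 in TNF. The number 1 library was lowest in each group, and the pair changes were alike, at -0.30, -0.32 and -0.28. F5 fell by 0.30 (blocked SE 0.04, adjusted p 3.99e-05; unpaired adjusted p 0.882). F8, the cofactor of factor IX, was at 2.54 ± 0.558 CPM in Control and 2.21 ± 0.278 in TNF and did not pass (log2 -0.13, 95% interval -0.43 to 0.16). Mcfd2 and Lman1 form the receptor that carries factors V and VIII out of the endoplasmic reticulum. Mcfd2 was at 147 ± 7.64 CPM in Control and 145 ± 12.1 in TNF (log2 -0.02, 95% interval -0.10 to 0.05) and Lman1 at 179 ± 15.4 CPM in Control and 175 ± 8.66 in TNF (log2 -0.03, 95% interval -0.10 to 0.05), and neither passed.

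In the contact phase, which starts clotting on charged surfaces, F12 was at 296, 497 and 416 CPM in Control and 263, 454 and 363 in TNF. The number 1 library was lowest and number 2 highest in each group, and F12 fell by 0.17 (blocked SE 0.03, adjusted p 0.00140; unpaired adjusted p 0.988). The kininogen genes Kng1 and Kng2, whose products release bradykinin, are neighbours on chromosome 16, and their transcripts shared 93.4% of 1566 aligned bases, so their values are uncertain where reads could be assigned to either gene. Kng1 was at 628 ± 105 CPM in Control and 579 ± 97.1 in TNF and fell by 0.12 (blocked adjusted p 0.0144), a call lost without replicate 1 (0.0522). Kng2 was at 175 ± 20.7 CPM in Control and 157 ± 23.3 in TNF and fell by 0.16 (blocked adjusted p 0.00373). F13b, the carrier subunit of the enzyme that cross-links fibrin, had the largest fall of the 33 tested members. It was at 26.1, 24.3 and 27.4 CPM in Control and 18.2, 18.2 and 22.3 in TNF, without overlap, and fell by 0.39 (blocked SE 0.07, adjusted p 0.000953; unpaired adjusted p 0.278).

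**Figure D2:**
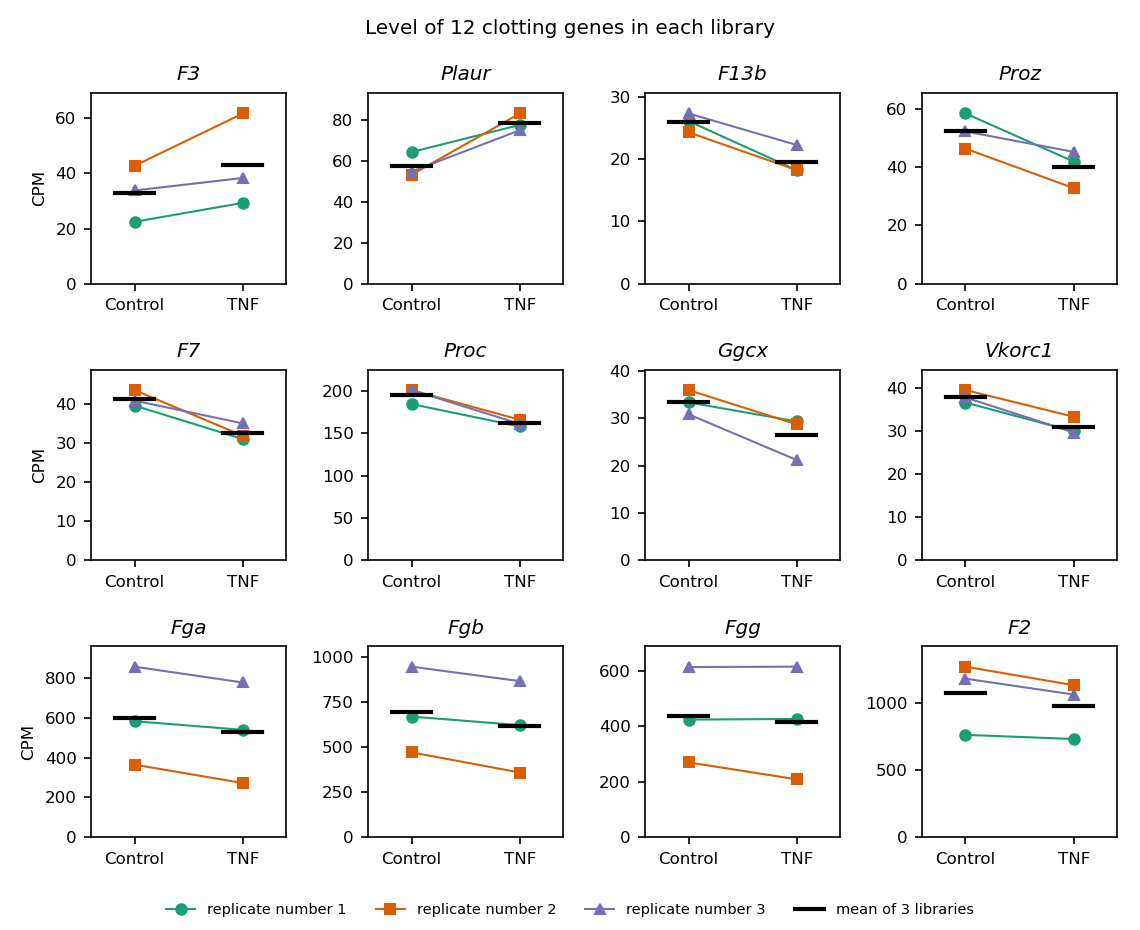
CPM of 12 genes in each library, on axes that start at 0. Lines join same-numbered libraries and black bars are means of 3 libraries; F3 and Plaur go up in every line, F13b, Proz, F7, Proc, Ggcx and Vkorc1 go down, and the fibrinogen chains differ more between library numbers than between groups.

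Several anticoagulants fell as well. Proc, the precursor of activated protein C, which inactivates factors Va and VIIIa, was at 185, 201 and 201 CPM in Control and 158, 166 and 161 in TNF. The groups did not overlap, and Proc fell by 0.27 (blocked SE 0.03, adjusted p 4.81e-05; unpaired adjusted p 0.184). Pros1, protein S, is its cofactor and was at 59.2, 52.4 and 54.4 CPM in Control and 52.1, 42.7 and 39.2 in TNF. TNF 1 lay just below Control 2, the closest approach of the groups, and Pros1 fell by 0.31 (blocked SE 0.06, adjusted p 0.00102; unpaired adjusted p 0.465). Serpina5, the protein C inhibitor, rested on 8 to 24 reads a library and was at 1.33, 0.951 and 0.779 CPM in Control and 0.814, 0.429 and 0.542 in TNF. It was lower in every pair and did not pass (log2 -0.34, blocked adjusted p 0.113). Its change depended on the pseudocount, from -0.10 with 5 CPM to -0.69 with 0.1 CPM, and was -0.76 in limma-voom with the block; it passed in none of these. Thbd, the thrombin receptor that turns thrombin towards protein C, was at 2.43 ± 0.443 CPM in Control and 2.64 ± 1.26 in TNF and did not pass (log2 0.04, 95% interval -0.26 to 0.34).

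Among the other inhibitors, Serpinc1, antithrombin, was at 489, 492 and 591 CPM in Control and 445, 415 and 549 in TNF. Each TNF library was below its Control partner while the groups overlapped, and Serpinc1 fell by 0.16 (blocked SE 0.03, adjusted p 0.00341; unpaired adjusted p 0.908). Serpina10, the protein Z-dependent inhibitor, was at 90.4 ± 14.7 CPM in Control and 75.0 ± 16.5 in TNF and fell by 0.28 (blocked adjusted p 0.000316), so that protein Z and its partner both fell. Tfpi, the inhibitor of the complex of tissue factor and factor VIIa, rested on 9 to 31 reads a library (0.966 ± 0.0595 CPM in Control and 1.01 ± 0.523 in TNF). Its pair changes were 0.05, -0.46 and 0.39, and it did not pass (log2 0.00, 95% interval -0.36 to 0.35).

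Of the vitamin K-dependent proteins of the list (F2, F7, F9, F10, Proc, Pros1 and Proz), 6 of 7 fell, where 11.2% of all tested genes did, and each of the 7 was lower in every pair, where 27.7% of all tested genes were. Falls were also common outside these 7. Of the 26 members with a mean of at least 10 CPM, these 7 included, 73.1% fell and 76.9% were lower in every pair. Of the 11 hepatocyte markers 54.5% fell and 72.7% were lower in every pair. The enzymes that serve the vitamin K-dependent proteins also fell. Ggcx, the γ-carboxylase, was at 33.3, 35.9 and 30.8 CPM in Control and 29.3, 28.7 and 21.1 in TNF. All TNF values lay below all Control values, and Ggcx fell by 0.34 (blocked SE 0.07, adjusted p 0.00278; unpaired adjusted p 0.530). Vkorc1, the reductase that recycles vitamin K and the target of warfarin, was at 36.7, 39.6 and 37.9 CPM in Control and 30.0, 33.4 and 29.7 in TNF. It fell by 0.29 without overlap of the groups (blocked SE 0.06, adjusted p 0.00172; unpaired adjusted p 0.293). In all, 7 tested members had no overlap with TNF lower (F7, F13b, Proc, Pros1, Proz, Ggcx and Vkorc1) and 1 with TNF higher (Plaur). Over all tested genes 6.66% had no overlap with TNF lower and 6.59% with TNF higher, against 21.2% and 3.03% of the members. Of the 11 hepatocyte markers 45.5% had no overlap with TNF lower and 0 with TNF higher.

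The fibrinolysis genes divided. Plaur, the urokinase receptor, which focuses plasmin formation on the cell surface, was at 64.5, 53.4 and 54.9 CPM in Control and 77.8, 83.4 and 75.2 in TNF. Every TNF library exceeded every Control library. Plaur rose by 0.45 (blocked SE 0.06, adjusted p 6.18e-05; unpaired adjusted p 0.114), the largest change of the 33 tested members, and by 0.27, 0.63 and 0.45 in the pairs. It passed in all 11 alternative settings with the block, with changes between 0.36 and 0.54.

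Plg, plasminogen itself, was at 282, 249 and 359 CPM in Control and 272, 199.8 and 332 in TNF. Library 2 was lowest in each group, and Plg fell by 0.16 (blocked adjusted p 0.0157), a call lost without replicate 2 (-0.08, adjusted p 0.160) and without a filter on low counts (0.101). Serpinf2, the α2-antiplasmin that inhibits plasmin, was at 274, 191 and 264 CPM in Control and 239, 163 and 196 in TNF. The groups overlapped, and Serpinf2 fell by 0.29 (blocked SE 0.04, adjusted p 0.000188; unpaired adjusted p 0.826). The plasminogen activators were scarce. Plat, the tissue-type activator, was at 3.20, 0.993 and 2.97 CPM in Control and 3.88, 1.45 and 3.84 in TNF, higher in every pair (0.21, 0.30 and 0.29) without passing (blocked adjusted p 0.153). Plau, the urokinase whose receptor rose, was at 1.39 ± 0.523 CPM in Control and 1.39 ± 0.385 in TNF and did not pass (log2 0.01, 95% interval -0.28 to 0.29).

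Members with a mean under 10 CPM were F8, Klkb1, Serpina5, Tfpi, Thbd, Plat, Plau and Vwf. Of the 7 tested, 0 passed in limma with or without the block; before adjustment, 2 lower members and 1 higher had a p under 0.05 with the block, where 17.5% and 14.2% of all tested genes did, and 0 without it. Vwf, the platelet-binding carrier of factor VIII, rested on 2, 5 and 3 reads in the Control libraries and on 6, 5 and 9 in the TNF libraries, and the authors' deposited table gave it a log2 change of 1.05 with an adjusted p of 0.197. The 20 endothelial markers summed to 143 to 253 CPM in Control and 159.8 to 261 in TNF. Of 19 tested, Stab1 (0.87) and Oit3 (0.54) rose and Stab2 (-0.19) fell in the blocked fit. These are 10.5% and 5.26%, against 9.4% and 11.2% of all tested genes. No endothelial marker was at 0 in every library, although Clec4g had 9 reads in all. The 8 platelet and megakaryocyte markers summed to 16.8 to 32.0 CPM in Control and 15.4 to 30.8 in TNF, with Ppbp at 0 reads and Pf4 at 1 read over the 6 libraries. In the other lists many markers had too few reads for a test, and most of those tested did not pass the blocked fit. Of 18 macrophage markers 3 were tested: Cd14 rose by 0.76 and 2 did not pass. Of 11 stellate cell markers 6 were tested: Reln fell by 0.38 and 5 did not pass. Of 8 cholangiocyte markers 5 were tested: Sox9 rose by 0.58, Pkhd1 fell by 0.31 and 3 did not pass. The part of such cells in the members' levels was not tested.

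Per kilobase of transcript, F2 was the most abundant member in Control (539.5 CPM per kb), followed by Kng1 (315), Fgg (257), Fga (233), F12 (206) and Fgb (183). The length used was that of the longest annotated transcript matched to each gene's RefSeq entry (3810 bases for Fgb, 1960 for F12). The order with other transcripts was not tested. Kng1 (255 to 354 CPM per kb) and Fgg (159 to 362), next to each other in this order of abundance, overlapped over the Control libraries. Plaur (38.3) and F3 (17.6) lay well below them, and Vwf (0.02) was lowest of the 34. Counted lengths take in introns where a gene has them, so these levels can also hold intron reads. Each of the 34 genes was counted over its whole span except F5 (68060 of 68443 bases).

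Most members, like most tested genes, differed more between Control libraries than between Control and TNF. Among Control libraries alone the highest value of a member exceeded the lowest by a median of 0.44 in log2(CPM + 1), against 0.26 for all tested genes. This range was larger than the TNF change for 25 of 33 members (75.8%) and for 10328 of the 12293 tested genes (84.0%), so less often among the members. Fga ranged 2.35-fold and F2 1.67-fold among Control libraries, with number 2 lowest for Fga and highest for F2. For 17 of 33 members the lowest and the highest library had the same numbers in Control and in TNF. The TNF change exceeded the Control range for F7, F13b, Proc, Pros1, Proz, Ggcx, Vkorc1 and Plaur.

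**Figure D3:**
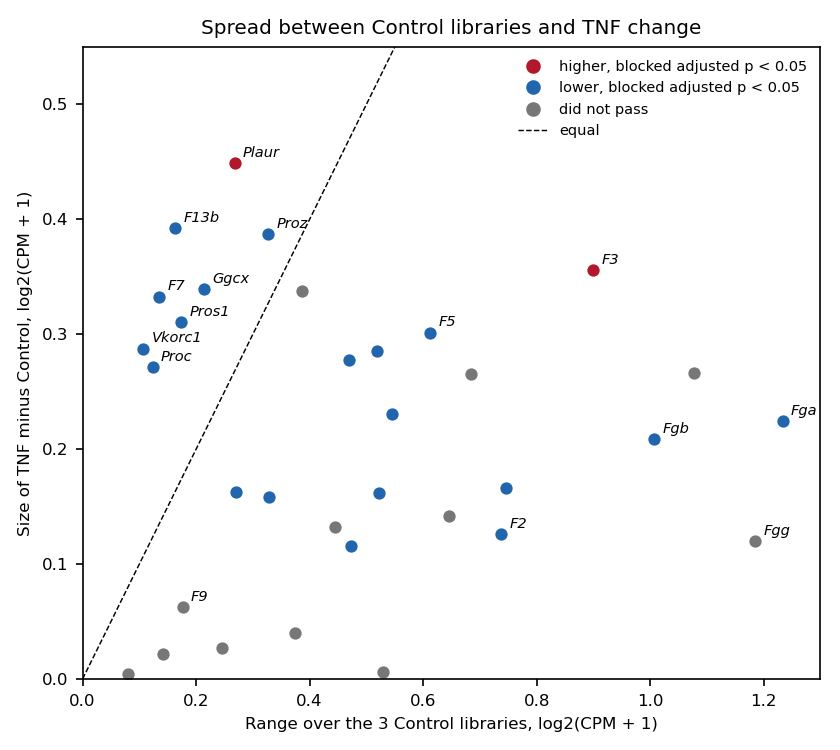
Range over the 3 Control libraries (horizontal) against the size of the TNF change (vertical), both in log2(CPM + 1), with 1 point for each of the 33 tested members, coloured by the blocked call. The dashed line marks equality; 8 members lie above it, and the fibrinogen chains lie far to its right.

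**Figure D4:**
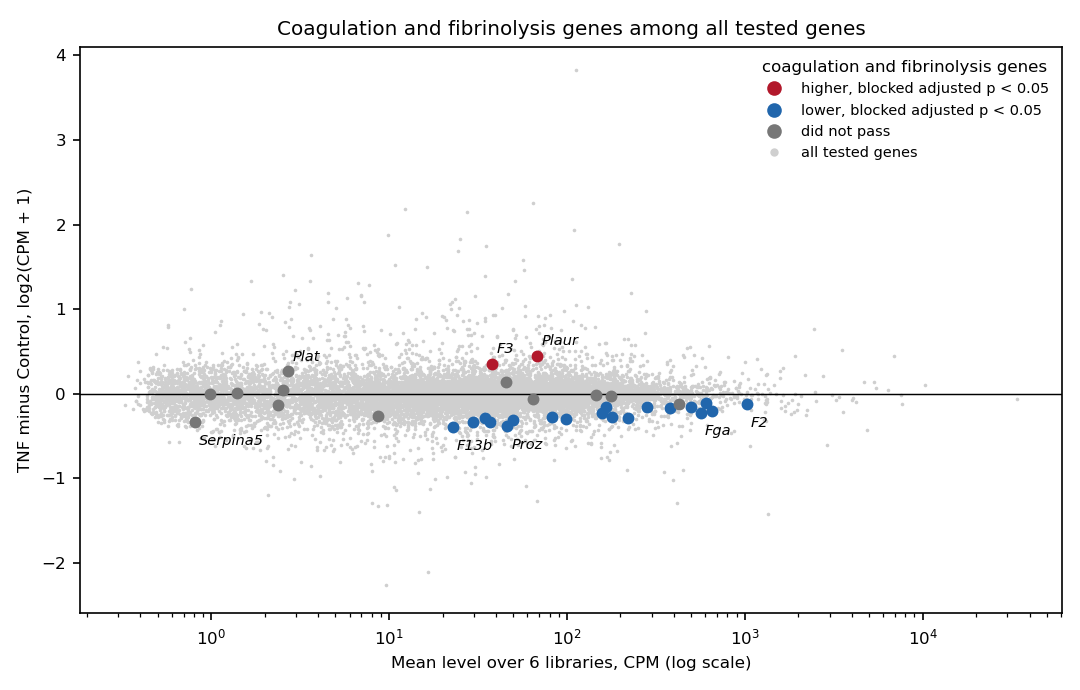
Change in log2(CPM + 1) against the mean CPM over 6 libraries (log axis) for the 12293 tested genes (small grey points) and the 33 members (large points, coloured by the blocked call). Most members above 10 CPM lie in a narrow band below 0.

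Related genes outside the 36, from a list of 45 symbols, changed in a mixed way. Of 37 tested, 5 rose (13.5%, against 9.4% of all tested genes), 9 fell (24.3%, against 11.2%) and 23 did not pass the blocked fit. Their median change was -0.07. The unpaired fit passed 0, where 0.431% of all tested genes passed. It held 5 lower and 1 higher before adjustment (13.5% and 2.70%, against 4.31% and 4.44% of all tested genes). Serpine2, which inhibits thrombin and plasminogen activators, was at 13.5 ± 1.87 CPM in Control and 18.3 ± 3.17 in TNF and rose by 0.41 without overlap. Anxa2, a plasminogen-binding protein of the cell surface, rose by 0.19. F2r, the thrombin receptor, was at 87.0 ± 6.70 CPM in Control and 63.9 ± 3.20 in TNF and fell by 0.44 without overlap (blocked SE 0.04, adjusted p 4.64e-06; unpaired adjusted p 0.0914). Tfpi2, a Kunitz-type protease inhibitor, fell by 0.41, and Lrp1, a clearance receptor for complexes of proteases and inhibitors, by 0.40. Masp1 and Masp2, proteases of the lectin pathway of complement, fell by 0.56 and 0.22. Mertk, a receptor of the protein S family of ligands, fell by 0.50, and Fn1, fibronectin, which fibrin binds, by 0.24.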

How the data were processed

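PolyA RNA was sequenced in 6 libraries, 3 Control and 3 TNF, grouped by sample title. Reads were aligned to mm10 with STAR 2.6.1a, according to the submitters' processing notes. The sources used here name no counting program, annotation or strand setting. The authors deposited log2 CPM values per library with a prior count. For each gene the authors also deposited their comparison: a log2 fold change, a test score and its raw and adjusted p-value, from a model the sources used here do not name. In 85.0% of genes reads were counted over the full span, with any introns.

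The shared floor (-3.35, or 0.0978 CPM) was subtracted, and 100.0% of 118584 values became whole reads within 1e-06. CPM keeps the authors' scaling. A gene was tested with at least 10 reads (at the median depth) in 3 libraries and 15 in total. The planned main test was limma 3.58.1 (R 4.3.3) on log2(CPM + 1), unpaired, two-sided, trended, with Benjamini-Hochberg adjustment at 0.05. Replicate numbers come from the titles; same-numbered libraries correlated at 0.78 to 0.79 and others at -0.47 to -0.34, so the blocked fit stands beside it. That fit has 2 residual degrees of freedom and a prior worth 11.6; for 13 of the 21 called members the gene's own SE exceeded the moderated SE. Raw-count models were planned only if raw counts were deposited, so they were not run, although whole reads were recovered. Alternatives were other scalings, pseudocounts, filters, limma-voom and leaving out libraries. Members and lists were chosen with earlier results of these data known. Named genes were all members, the 10 related genes with the largest change among those that passed (1 of them is not reported here), and markers that passed or dominate a list; Ppbp, Pf4 and Clec4g were named after their values were seen.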

Additional observations from a re-analysis of the deposited data

How the results depend on the processing

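The replicate block was the choice that mattered most. The pairing rests on the title numbers and the correlations in these same libraries, since the labels do not state one. With the block 2530 of the 12293 genes passed (1156 higher and 1374 lower), where the unpaired limma fit passed 53 (44 and 9). Among members the blocked fit passed 21 (2 higher and 19 lower) against 0 in the unpaired fit. No unpaired setting passed a member. Without a filter on low counts the unpaired fit passed 31 genes (28 higher and 3 lower) and the blocked fit 911 lower. Leaving out a library, the unpaired fit passed 9 to 30 genes (8 to 25 higher and 0 to 5 lower).

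With the block, 16 of the 21 called members passed in all 11 alternatives; F2, Fga, Fgb, Kng1 and Plg did not, as given beside their values, and F11 and Fgg passed in some. Signs turned with the block only among members that had not passed: Fgg (0.00511) and Plau (-0.044) without replicate 2, Thbd (-0.137) and Mcfd2 (0.00641) without replicate 3, Lman1 (0.00302) without replicate 1, and Tfpi, at 0.00015 with median-of-ratios factors, 0.00245 with total reads (both also without the block), 0.00586 with a pseudocount of 5 (also without the block), 0.0191 with limma-voom and 0.221 without replicate 2. Unpaired, leaving out a library turned the sign of F2 (-0.35 to 0.069), F9 (-0.12 to 0.014), F11 (-0.066 to 0.32), F12 (-0.37 to 0.042), Fga (-0.56 to 0.19), Fgb (-0.50 to 0.14), Fgg (-0.47 to 0.31), Klkb1 (-0.60 to 0.017), Kng1 (-0.26 to 0.027), Plg (-0.33 to 0.033), Tfpi (-0.19 to 0.20), Thbd (-0.23 to 0.21), Plat (-0.079 to 0.60), Plau (-0.12 to 0.18), Mcfd2 (-0.065 to 0.049) and Lman1 (-0.087 to 0.036). Other scalings shifted the scale of the TNF libraries against that of the Control libraries by a mean log2 of 0.0102 (median-of-ratios) and 0.00674 (total reads). Depth limits Serpina5, Tfpi and Vwf most, where 3 reads are 0.124 to 0.166 CPM.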
